A study of Mus musculus with 10 samples.

Results

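The mevalonate pathway makes the isoprenoid building blocks of cholesterol, and its early steps were followed here in mouse liver with and without Pml, in fed and in fasted animals. The rule named 8 genes, took the rows of the deposited value table that carry their symbols, and kept the brightest row of each gene. Of these, 6 genes (Hmgcs1, Mvk, Pmvk, Mvd, Fdps and Ggps1) had a probe set with a single symbol, 1 row each, and all 6 passed the filter on dim probe sets, among 13942 genes tested. Idi1 had 1 probe set, which the platform table lists under Idi1 and Gm13502 together, so it is described apart and not counted among the 6. Acat2 had no row with its symbol and is not analysed here.

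The study measured liver RNA on 10 Affymetrix Mouse Gene 2.1 ST arrays, whose short probes cover the exons of a transcript. The groups were fasted Pml KO (3 arrays), fasted Pml wt (3 arrays), Pml KO fed ad libitum (2 arrays) and Pml wt fed ad libitum (2 arrays), called fasted knockout, fasted wild type, fed knockout and fed wild type here. All mice were 3-month-old BALB/cByJ females, and fasted mice had no food for 6 h before liver was taken. The submitters' note on removing food stands with every sample, the fed ones too, so feeding was read from titles. The sources used here do not say how the Pml allele was made, nor whether each array is a separate animal, so p-values measure only the spread between these samples, which may be technical in part.

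In the pathway, Acat2 joins acetyl-CoA units, Hmgcs1 adds another to make hydroxymethylglutaryl-CoA, and this is reduced to mevalonate. Mvk and Pmvk phosphorylate mevalonate in turn, Mvd decarboxylates the product to isopentenyl diphosphate, and Idi1 isomerizes it. Fdps builds farnesyl diphosphate, the branch point to sterols, and Ggps1 extends it to geranylgeranyl diphosphate, used for protein prenylation. In liver, the transcription factor SREBP-2 (Srebf2) is known to raise transcription of these enzymes when sterols are low, acting through sterol regulatory elements beside NF-Y boxes, and feeding and the circadian clock are known to move the pathway over the day.

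Promoter sequence of RefSeq (GRCm38.p6) was available for 7 of the 8 genes. It is shown for Hmgcs1 and for the kinases and decarboxylase that follow it, since these 4 genes were lower in fasted wild type livers below. Only bases upstream of the annotated start that lie outside neighbouring genes are printed, 5′ to 3′ on the strand of the gene. Capitals mark matches to TCACNCCA, a core of the sterol regulatory element, and to CCAAT, the NF-Y box, which reads ATTGG when it lies on the other strand. The windows are chr13:119690101-119690350 (plus strand) for Hmgcs1, chr5:114444074-114444268 (plus strand) for Mvk, chr3:89454291-89454540 (plus strand) for Pmvk and chr8:122443423-122443655 (minus strand) for Mvd. For Pmvk this is the window of the first listed start, and that of a second listed start is not printed.
Hmgcs1: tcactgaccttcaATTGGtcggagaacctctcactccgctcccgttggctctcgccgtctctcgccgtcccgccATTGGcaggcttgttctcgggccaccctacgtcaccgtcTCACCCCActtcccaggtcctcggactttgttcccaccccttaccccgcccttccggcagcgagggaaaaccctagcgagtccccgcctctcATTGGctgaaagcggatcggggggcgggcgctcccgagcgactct
Mvk: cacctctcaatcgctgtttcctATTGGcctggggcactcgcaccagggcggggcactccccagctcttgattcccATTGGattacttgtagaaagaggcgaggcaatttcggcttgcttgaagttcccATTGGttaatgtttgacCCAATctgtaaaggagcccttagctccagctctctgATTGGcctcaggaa
Pmvk: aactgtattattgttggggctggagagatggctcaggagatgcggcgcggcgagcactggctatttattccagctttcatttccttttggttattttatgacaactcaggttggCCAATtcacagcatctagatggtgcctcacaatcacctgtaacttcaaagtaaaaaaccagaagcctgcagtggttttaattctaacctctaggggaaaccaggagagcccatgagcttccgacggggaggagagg
Mvd: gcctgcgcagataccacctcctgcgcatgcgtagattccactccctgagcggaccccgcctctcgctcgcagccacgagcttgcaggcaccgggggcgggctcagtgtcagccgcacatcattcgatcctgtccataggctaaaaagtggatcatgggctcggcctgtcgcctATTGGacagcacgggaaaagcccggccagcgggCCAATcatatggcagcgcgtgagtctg

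Both strands of the 250 bases before each start were searched. TCACNCCA was found in 1 of the 7 members, Hmgcs1, 137 bases before its start, against 3.67% of 32851 RefSeq promoters. CCAAT was found in 6 of the 7, all but Acat2, against 33.8% of promoters, and GGGCGG, an Sp1 box, in 5 of the 7, against 32.7%. The member counts use the first listed start of each gene. The window of the second Pmvk start (chr3:89459321-89459570) held 0 CCAAT, 0 TCACNCCA and 0 GGGCGG matches, so the CCAAT match of Pmvk depends on the start used. TCACNCCA and CCAAT can share the letters CCA where they adjoin. Mvk held 5 CCAAT boxes, 4 of them on the minus strand with 53 bases from each to the next, at 173, 120, 67 and 14 bases before the start. The start of Mvk lies 241 bases from that of Mmab, which runs the other way, so the sequence between them serves as the upstream window of both. A match is a description of letters in these windows and says nothing of a factor's binding.

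The arrays were of like brightness, with medians of 43.5 to 47.5 intensity units. Pml fell in knockout livers by 1.60 on the log2 scale in the fasted state (adjusted p = 0.00434) and by 1.63 in the fed state (adjusted p = 0.0398), and the groups did not overlap, though its probes may reach beyond what was deleted. The 6 hepatocyte markers (Alb, Ttr, Apoa1, Cyp2e1, Tat and Cps1) were measured on all arrays and none was called in the 4 pairwise comparisons. Of the clock genes, Arntl and Dbp set apart the arrays of 1 group. Arntl, the clock activator also known as Bmal1, had log2 intensities of 4.60, 4.53 and 8.87 in fasted knockout, 9.29, 9.04 and 9.16 in fasted wild type, 5.72 and 6.02 in fed knockout, and 7.50 and 7.10 in fed wild type. Dbp, a clock output gene, had 10.05, 9.80 and 6.00 in fasted knockout, 6.07, 6.58 and 6.64 in fasted wild type, 9.88 and 10.02 in fed knockout, and 9.50 and 9.58 in fed wild type. Fasted knockout arrays 1 and 2 thus lay near the fed arrays in Dbp and below all of them in Arntl. Array 3 lay near fasted wild type in both genes. Each called difference that involves fasted knockout is therefore also given without arrays 1 and 2. That leaves 1 fasted knockout array, whose spread is assumed to be like that of the other groups, and Pml itself was then not called in the fasted state (-1.65, adjusted p = 0.0708).

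Hmgcs1, the synthase at the entry of the pathway, had log2 intensities of 9.42, 9.32 and 10.30 in fasted knockout, 10.02, 10.22 and 10.45 in fasted wild type, 10.21 and 10.35 in fed knockout, and 11.27 and 11.68 in fed wild type. The fed wild type arrays stood above all the others, which spanned 9.32 to 10.45, and fasted knockout array 3 lay 0.93 above the mean of arrays 1 and 2. The means were 9.68 ± 0.54 in fasted knockout, 10.23 ± 0.21 in fasted wild type (SD, n = 3 each), 10.28 ± 0.10 in fed knockout and 11.48 ± 0.29 in fed wild type (SD, n = 2 each). Fed knockout and fasted wild type, neighbours in this order, overlapped.

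Mvk, mevalonate kinase, had log2 intensities of 6.78, 6.26 and 6.65 in fasted knockout, 5.43, 5.39 and 5.66 in fasted wild type, 7.25 and 7.30 in fed knockout, and 8.22 and 8.60 in fed wild type. No groups overlapped, and the order of the means was fed wild type (8.41 ± 0.27, n = 2), fed knockout (7.28 ± 0.04, n = 2), fasted knockout (6.56 ± 0.27, n = 3) and fasted wild type (5.49 ± 0.15, n = 3; SD). In fasted wild type only 1 of 3 arrays placed Mvk above the median of the array, so its lowest values lie near the dim end of the scale.

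Pmvk, phosphomevalonate kinase, had log2 intensities of 7.05, 6.69 and 7.40 in fasted knockout, 7.27, 6.79 and 7.09 in fasted wild type, 7.21 and 7.67 in fed knockout, and 8.26 and 8.54 in fed wild type. As with Hmgcs1, the fed wild type arrays stood alone at the top and the other 3 groups overlapped. Mvd, the decarboxylase, had 5.92, 5.90 and 5.62 in fasted knockout, 5.38, 5.89 and 5.95 in fasted wild type, 6.75 and 6.81 in fed knockout, and 7.50 and 8.95 in fed wild type. The fed wild type arrays of Mvd differed from each other by 1.45, more than in any other member, while the fasted groups lay over each other. In fasted wild type 2 of 3 arrays placed Mvd above the median of the array, so its fasted values lie near the dim end of the scale. Pmvk averaged 7.05 ± 0.35 in fasted knockout, 7.05 ± 0.24 in fasted wild type (SD, n = 3 each), 7.44 ± 0.32 in fed knockout and 8.40 ± 0.20 in fed wild type (SD, n = 2 each). Mvd averaged 5.82 ± 0.17 in fasted knockout, 5.74 ± 0.31 in fasted wild type (SD, n = 3 each), 6.78 ± 0.04 in fed knockout and 8.23 ± 1.03 in fed wild type (SD, n = 2 each).

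The probe set listed under Idi1 and Gm13502, of which RefSeq marks Gm13502 as a pseudogene, had log2 intensities of 9.18, 9.06 and 9.34 in fasted knockout, 8.74, 8.42 and 8.43 in fasted wild type, 9.62 and 9.71 in fed knockout, and 10.61 and 10.84 in fed wild type. The 4 groups did not overlap and lay in the same order as those of Mvk. How much of this signal belongs to Idi1, the isomerase, cannot be told from the array.

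Fdps, farnesyl diphosphate synthase, had log2 intensities of 9.72, 9.12 and 9.90 in fasted knockout, 9.66, 8.91 and 9.24 in fasted wild type, 10.45 and 10.50 in fed knockout, and 11.04 and 11.27 in fed wild type. The fed groups stood above the fasted ones without overlap, and the fasted groups overlapped. Ggps1, geranylgeranyl diphosphate synthase, had 7.13, 7.50 and 7.47 in fasted knockout, 7.79, 7.61 and 7.70 in fasted wild type, 6.81 and 7.45 in fed knockout, and 7.73 and 7.56 in fed wild type. Ggps1 lay lower in knockout than in wild type livers in each feeding state, with 0.06 between the means of fasted and fed wild type.

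**Figure D1:**
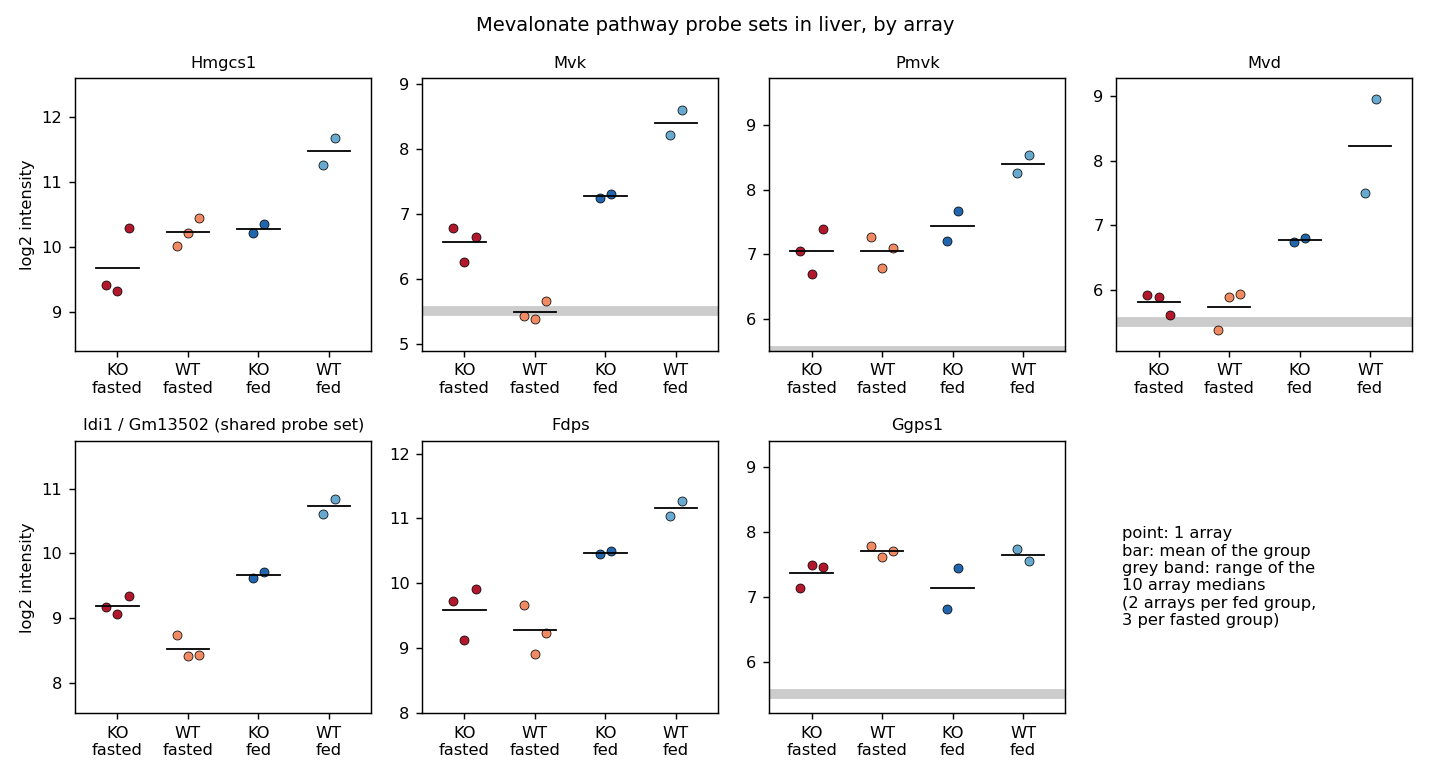
Log2 intensity of each mevalonate pathway gene on each array, with the groups in the order fasted knockout, fasted wild type, fed knockout and fed wild type. Points are arrays, bars are group means and the grey band is the range of the array medians. The fed wild type mean stands highest for Hmgcs1, Mvk, Pmvk, Mvd and Fdps, and Mvk alone of the 6 has 4 groups that do not overlap.

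Across the 10 arrays, 5 of the 6 genes moved together. The Pearson correlation of each gene with the mean of the other 5 was 0.83 for Hmgcs1, 0.86 for Mvk, 0.96 for Pmvk, 0.91 for Mvd and 0.91 for Fdps, and -0.01 for Ggps1. These are descriptions over 10 arrays that share the group structure.

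In fasted wild type livers, transcripts of the route from Hmgcs1 to Fdps were lower than in fed ones. Of the 6 members, 5 fell and Ggps1 was not called, against 13.2% of all genes called lower. The same 5 did not overlap between fasted and fed arrays, against 29.7% of all genes that were lower without overlap. The median log2 difference was -1.61 over the 6 members and -0.02 over all genes. As the samples are whole liver, fewer cells of a type and less RNA per cell cannot be told apart.

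Mvk fell by 2.92 on the log2 scale in fasted wild type (SE 0.18, 95% interval -3.31 to -2.52, adjusted p = 9.23e-05), a size that rests on dim signal in fasted wild type, where 1 of 3 arrays was above the array median. Mvd fell by 2.49 (SE 0.35, adjusted p = 0.00160), also to dim signal, with 2 of 3 fasted wild type arrays above the array median. Fdps fell by 1.88 (SE 0.25, adjusted p = 0.00132). Pmvk fell by 1.34 (SE 0.23, adjusted p = 0.00372) and Hmgcs1 by 1.25 (SE 0.27, adjusted p = 0.0114). The Hmgcs1 call was lost without fed wild type array 2, where the difference was -1.04 (adjusted p = 0.0767). Ggps1 differed by 0.06 (95% interval -0.36 to 0.47, adjusted p = 0.855). The Idi1 and Gm13502 probe set, added to the fit after its rows were seen, fell by 2.20 (SE 0.14, adjusted p = 9.26e-05). Beside this, 2 of 6 macrophage markers (Adgre1 and Csf1r) and 1 of 6 stellate cell markers (Lrat) were lower and 1 of 6 endothelial markers (Pecam1) was higher in fasted wild type. Of all genes, 13.2% were called lower and 1147 of 13942 higher. The part of these cells in the result was not tested.

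In knockout livers no member was called after fasting, by limma. The difference was -0.96 for Mvd, -0.89 for Fdps, -0.71 for Mvk (adjusted p = 0.0706), -0.61 for Hmgcs1, -0.39 for Pmvk and 0.23 for Ggps1. Over all genes 0.868% were called lower. At an unadjusted p under 0.05, 3 members were lower, where 9.78% of all genes were. Mvk, Mvd and Fdps were lower without overlap, against 18.5% of all genes. The median was -0.66 over the members and 0.01 over all genes. Without fasted knockout arrays 1 and 2, leaving 1 fasted knockout array, the difference was -1.15 for Mvd, -0.57 for Fdps and -0.62 for Mvk. It was then 0.01 for Hmgcs1, -0.04 for Pmvk and 0.34 for Ggps1. Mvd was called when fed wild type array 1 or array 2 was left out (adjusted p = 0.0480 each), and Mvk with the 70th percentile filter (adjusted p = 0.0456) or with trend and robust moderation (adjusted p = 0.0490).

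In fed livers all 6 members lay lower in knockout than in wild type, but none was called after adjustment, by limma. The difference was -1.45 for Mvd, -1.19 for Hmgcs1, -1.13 for Mvk, -0.96 for Pmvk, -0.69 for Fdps and -0.51 for Ggps1, with adjusted p between 0.112 and 0.514. All 6 were lower at an unadjusted p under 0.05, where 5.21% of all genes were, and in all 6 the arrays of the groups did not overlap, where 23.7% of all genes lay lower without overlap. Only 0.0287% of all genes were called lower in this comparison, which has 2 arrays a group. The median was -1.04 over the members and -0.02 over all genes. Mvd was called without fed wild type array 1 (-2.18, adjusted p = 0.0243), while without array 2 the difference was -0.72, and Mvk was called with trend and robust moderation (adjusted p = 0.0473). The fed knockout mean of Hmgcs1 lay below fed wild type by 95.6% of the fasting difference in wild type. This share was 38.8% for Mvk, 71.2% for Pmvk, 58.3% for Mvd and 36.4% for Fdps. None is given for Ggps1, which did not fall with fasting. The genotype and fasting differences both use the 2 fed wild type arrays, so the shares are descriptions only. On the arrays of this comparison Arntl was 5.72 and 6.02 in fed knockout, against 7.50 and 7.10 in fed wild type. The members' differences with the clock covariate kept their direction in this comparison, with 0 called.

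**Figure D2:**
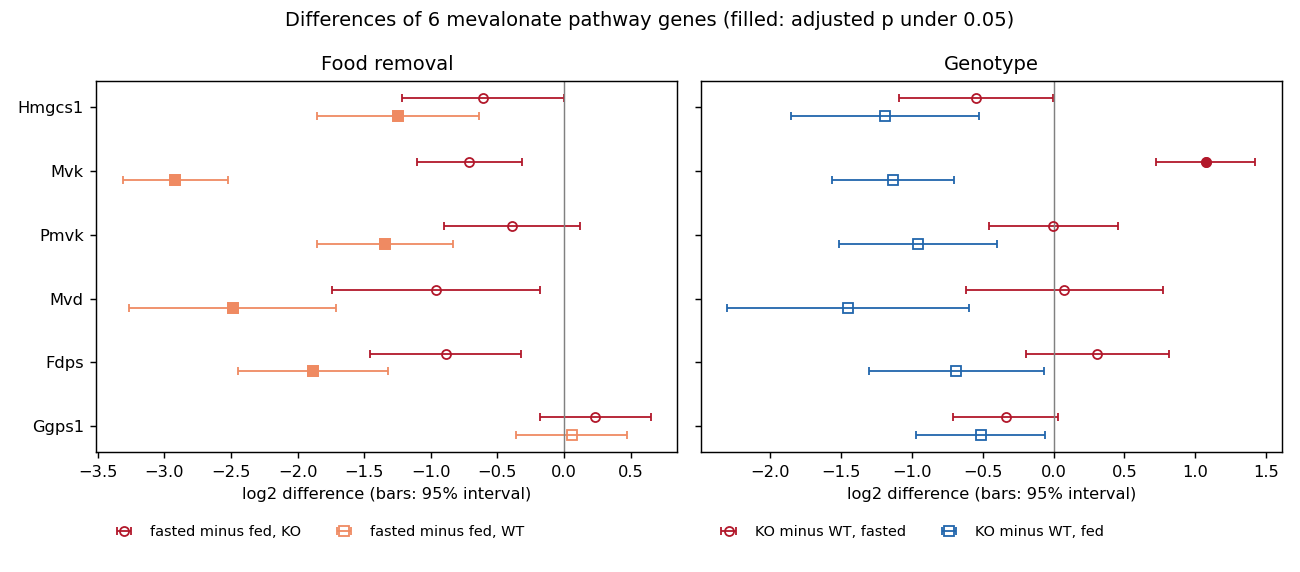
Log2 difference of each member in the 4 pairwise comparisons, with its 95% interval and filled where the adjusted p is under 0.05; a positive value is higher in the fasted or the knockout group. In wild type, the interval of Mvk after fasting runs from -3.31 to -2.52.

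In fasted livers, Mvk was the 1 member called between the genotypes. It was higher in knockout by 1.07 on the log2 scale (SE 0.16, 95% interval 0.72 to 1.42, adjusted p = 0.00685), a ratio of 2.10, where 6.68% of all genes were called higher. No member was called lower, where 4.43% of all genes were. Ggps1, at -0.34 (adjusted p = 0.214), was lower without overlap, against 15.1% of all genes. Hmgcs1 differed by -0.55 (adjusted p = 0.170), Fdps by 0.31 (adjusted p = 0.402), Mvd by 0.08 (95% interval -0.62 to 0.77, adjusted p = 0.903) and Pmvk by -0.0031 (95% interval -0.46 to 0.45, adjusted p = 0.994), intervals that still hold differences of the size seen for Ggps1. The Idi1 and Gm13502 probe set, when added, was higher by 0.66 (SE 0.12, adjusted p = 0.0134).

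This comparison was also fitted without fasted knockout arrays 1 and 2, which leaves 1 fasted knockout array and so less precision. Without them Mvk differed by 1.16 (adjusted p = 0.0697) and the Idi1 and Gm13502 probe set by 0.81 (adjusted p = 0.0914). With Arntl minus Dbp as a covariate Mvk differed by 1.14 (adjusted p = 0.0648). Hmgcs1 was -0.86 (adjusted p = 0.0150) without fasted knockout array 3, but 0.07 without arrays 1 and 2. Beside the Mvk difference, 4 of 6 macrophage markers were called higher in fasted knockout than in fasted wild type. These were Adgre1, Cd68, Csf1r and Cd5l, with differences of 0.36 to 0.65. Without arrays 1 and 2, which leaves 1 fasted knockout array, the differences were 0.36 to 0.58. The summed intensity of the list spanned 3332 to 3759 in fasted knockout and 2763 to 2933 in fasted wild type. It spanned 3129 to 3416 in fed knockout and 3022 to 3628 in fed wild type. With fasting, 0 of the 6 markers were called in knockout and 2 were called lower in wild type. The part of macrophages in the result was not tested.

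**Figure D3:**
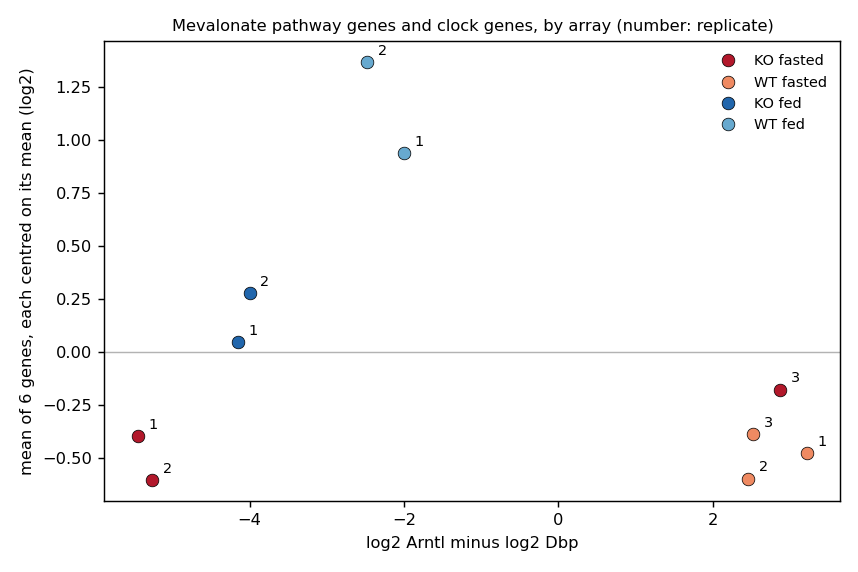
Each point is an array, with log2 Arntl minus log2 Dbp on the horizontal axis and the mean of the 6 members, each centred on its own mean over the arrays (log2), on the vertical axis. Colours are groups and numbers are replicates. Fasted knockout arrays 1 and 2 have -5.45 and -5.27 on the clock axis, and array 3 has 2.87.

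The genotype by fasting interaction, the fasting difference in knockout minus that in wild type, was above 0 for all 6 members. Mvk was called, with 2.21 (SE 0.25, 95% interval 1.65 to 2.76, adjusted p = 0.0170), and 1.32% of all genes were called higher. Mvd was at 1.52, Fdps at 1.00, Pmvk at 0.95, Hmgcs1 at 0.64 and Ggps1 at 0.18, with adjusted p between 0.132 and 0.753. The median was 0.98 over the members and 0.04 over all genes. The interaction of the Idi1 and Gm13502 probe set was 1.72 (SE 0.20, adjusted p = 0.0148), and 1.87 (adjusted p = 0.0638) without fasted knockout arrays 1 and 2. For Mvk the difference stayed between 2.01 and 2.40 with each array left out in turn, but the call was lost without fed knockout array 1 (2.18, adjusted p = 0.0572) or array 2 (2.23, adjusted p = 0.0735), without fasted knockout arrays 1 and 2 (2.30, adjusted p = 0.0650) and without the filter (an unchanged 2.21, adjusted p = 0.0609).

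The sterol branch after farnesyl diphosphate held 12 listed genes, 11 of them tested. In wild type livers 8 fell with fasting, against 13.2% of all genes, with a median of -1.64 over the 11. Cyp51, lanosterol demethylase, was at -2.58, Msmo1 and Nsdhl, which act in the removal of sterol methyl groups, were at -2.24 and -2.17, and Sc5d, a sterol desaturase, was at -1.27. In knockout none was called after fasting (7 were lower at an unadjusted p under 0.05, against the 9.78% of all genes given above), with a median of -0.58. In fed livers all 11 lay lower in knockout and none was called (9 at an unadjusted p under 0.05, against 5.21% of all genes). In fasted livers 2 were called higher in knockout than in wild type, Nsdhl by 0.75 (adjusted p = 0.0438) and Sc5d by 0.43 (adjusted p = 0.0324). Without fasted knockout arrays 1 and 2 Nsdhl was at 1.03 (adjusted p = 0.114) and Sc5d at 0.47 (adjusted p = 0.194), neither called. The interaction was called higher for 4, Cyp51 at 1.75, Nsdhl at 1.60, Msmo1 at 1.54 (adjusted p = 0.0426 each) and Fdft1, squalene synthase, at 1.25 (adjusted p = 0.0463). Without those arrays none of the 4 was called: Cyp51 was at 2.29 (adjusted p = 0.0650), Nsdhl at 1.87 (adjusted p = 0.0733), Msmo1 at 1.60 (adjusted p = 0.117) and Fdft1 at 1.10 (adjusted p = 0.143).

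Of 17 genes listed for sterol sensing, uptake and export, 14 were tested. In wild type 5 fell and 2 rose with fasting, where 13.2% of all genes were called lower and 1147 of 13942 higher. Srebf1, a regulator of lipid synthesis, was at -2.80, Insig1 at -1.89 and Stard4, a sterol carrier, at -1.76. Insig2, which like Insig1 holds SREBP and its escort in the endoplasmic reticulum, rose by 1.63. Srebf2, singled out after its values were seen because it encodes SREBP-2, fell by 0.68 in fasted wild type (adjusted p = 0.0265) and was not called elsewhere, with -0.04 between fasted knockout and fasted wild type (adjusted p = 0.910). In knockout Srebf1 fell by 2.11 (adjusted p = 0.0415) and was the only call. Without fasted knockout arrays 1 and 2 Srebf1 was at -2.86 (adjusted p = 0.0227) and Insig2 was called too, at 1.36 (adjusted p = 0.0347). In fed livers none was called in knockout against wild type. In fasted livers Stard4 was higher in knockout by 0.73 (adjusted p = 0.0266) and Insig2 was lower, at 50.1% of the fasted wild type level (adjusted p = 0.0333). Insig2 had log2 intensities of 10.53, 10.85 and 11.68 in fasted knockout and of 12.02, 12.03 and 11.99 in fasted wild type, so fasted knockout array 3 lay nearest to wild type. Without arrays 1 and 2 neither was called, with Stard4 at 0.46 (adjusted p = 0.319) and Insig2 at -0.34 (adjusted p = 0.344).

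Of 13 genes that use isoprenoid diphosphates outside the sterol branch, 11 were tested. In wild type 3 fell with fasting and 1 rose, where 13.2% of all genes were called lower and 1147 of 13942 higher. Dhdds, of dolichol synthesis, was at -0.84, Fntb, a farnesyltransferase subunit, at -0.87 and Pdss2, of coenzyme Q synthesis, at -0.49. Rabggtb, a subunit of the enzyme that prenylates Rab proteins, rose by 0.78. Fntb lay near the dim end, with 1 of 3 fasted wild type arrays above the array median. Dhdds was also higher in fasted knockout than in fasted wild type by 0.44 (adjusted p = 0.0358; 0.54 and 0.145 without fasted knockout arrays 1 and 2), and the other comparisons had no call. Of 4 genes that supply acetyl-CoA, 3 were tested, and all 3 fell in fasted wild type, Acly at -2.26, Acss2 at -1.44 and Slc25a1 at -0.55. Acly, ATP citrate lyase, was called in fasted knockout too, 2.83-fold lower than in fed knockout (adjusted p = 0.0483), but not without fasted knockout arrays 1 and 2 (-1.90, adjusted p = 0.0501). Of 6 relatives and genes of the ketone body route, 3 were tested. Acat3 fell in fasted wild type by 0.89 (adjusted p = 0.00733), and Bdh1 was higher in fasted knockout than in fasted wild type by 0.46 (adjusted p = 0.0341), but not called without those arrays (0.28, adjusted p = 0.363).

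**Figure D4:**
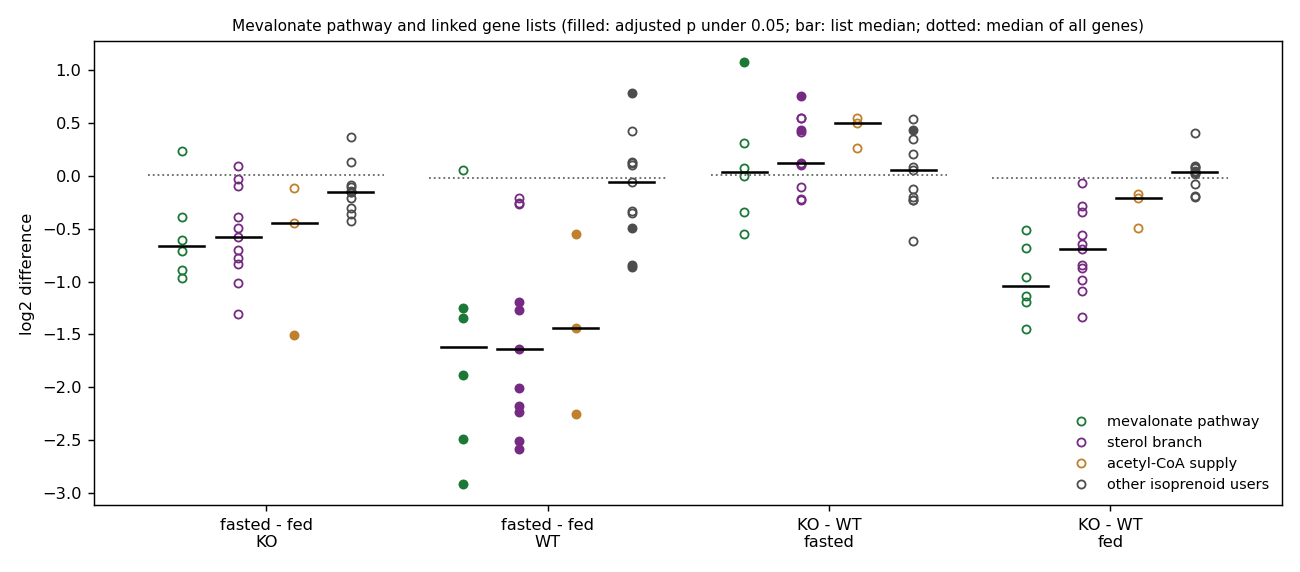
Log2 differences of the genes of 4 lists in the 4 pairwise comparisons; points are genes (filled where the adjusted p is under 0.05), bars are list medians and dotted lines the median of all genes. In wild type after fasting the medians are -1.61 for the mevalonate pathway genes and -1.64 for the sterol branch, against -0.02 for all genes.

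Of 16 genes adjacent to the members, 12 were tested. Mmab, the neighbour that shares the Mvk upstream window printed above, had the same group order as Mvk. The order of the means was also the same for Mvd, Fdps and Cyp51, which do not lie beside Mvk. The part of the shared window was not tested. Mmab adds the adenosyl group to cobalamin. Its log2 intensities were 6.73, 6.73 and 7.13 in fasted knockout, 6.33, 5.94 and 6.25 in fasted wild type, 7.20 and 7.29 in fed knockout, and 8.04 and 8.27 in fed wild type. The 4 groups did not overlap. With fasting it fell in wild type by 1.98 (SE 0.16, adjusted p = 0.000251), in fasted livers it was higher in knockout by 0.69 (adjusted p = 0.0204), and its interaction was 1.60 (SE 0.23, adjusted p = 0.0265). Without fasted knockout arrays 1 and 2 these were 0.95 (adjusted p = 0.0814) and 1.87 (adjusted p = 0.0650), neither called. Fam222a, the neighbour of Mvk on the other side, had 4.08, 5.12 and 5.85 in fasted knockout, 6.88, 6.69 and 6.44 in fasted wild type, 4.83 and 4.37 in fed knockout, and 5.23 and 5.26 in fed wild type, so that it passed the filter mainly through fasted wild type. No fed array lay above its array's median, so these values are given as a description, with no test. Another neighbour called in wild type was Acat3, beside Acat2.

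**Figure D5:**
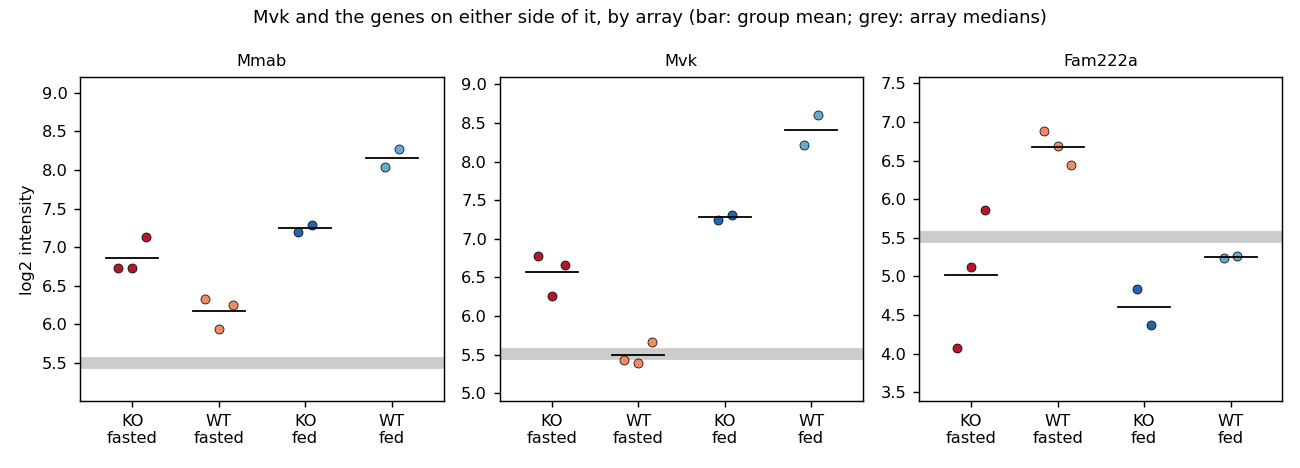
Log2 intensity of Mvk and of its neighbours Mmab and Fam222a on each array, by group, with bars at group means and a grey band over the array medians. Mvk and Mmab stand highest in fed wild type and lowest in fasted wild type, and Fam222a is highest in fasted wild type.

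The genes most like the members were ranked by Pearson correlation, over the 10 arrays, with the mean of the members' mean-centred values, among 12182 genes. They were Cyp51 (0.985), Rdh11, a retinol dehydrogenase (0.972), Lss, lanosterol synthase (0.963), S1pr1, a sphingosine 1-phosphate receptor (0.953), Rassf7 (0.949), Sqle, squalene epoxidase (0.943), Phka1, a phosphorylase kinase subunit (0.942), Dhx29 and Med23 (0.941 each) and Tmed7 (0.938). In all, 55 genes had a correlation over 0.9. The ranking used the same arrays as the comparisons, so no test of these genes is read from it.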

How the data were processed

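Liver RNA of 10 samples was hybridised to Affymetrix Mouse Gene 2.1 ST arrays. The deposited table gives, for every probe set, a normalized linear intensity on each array. The authors made it by RMA in Affymetrix Expression Console, per the submitters' processing notes, whose versions, library files and build the sources used here do not state. On each array 228 to 489 values lie under 0.1. These values were put on a log2 scale and not normalized again. Of 41345 probe sets, the platform table gives 23521 with 1 symbol, 1814 with several and 16010 with none. Probe sets over their array's median (the 50th percentile) on 2 or more arrays were retained, with the brightest standing for each gene.

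A model with 4 group means was fitted with limma 3.58.1 under R 4.3.3 (eBayes, with 3.63 prior and 6 residual degrees of freedom), with 5 contrasts and Benjamini-Hochberg adjustment over 13942 genes; calls needed an adjusted p below 0.05. The code was tested on simulated data. Array numbers limit the precision, with 2 arrays in each fed group and 3 in each fasted group. No batch is given in the labels. The members and lists were chosen with earlier results of these data known. Promoters came from a RefSeq table, matched by symbol. Named genes are all members, up to 4 genes with the smallest p per list and contrast, the adjacent genes, and the 10 genes most like the members, leaving out predicted and numbered symbols. Alternatives were centring, repeated quantile normalization, no filter, a 70th percentile filter, mean of probe sets, trend and robust moderation, a replicate block, the groups of a contrast alone, a clock covariate, omission of arrays, and the shared Idi1 probe set. This last, and the values of other named genes without fasted knockout arrays 1 and 2, were added after the data were seen.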

Additional observations from a re-analysis of the deposited data

Results flagged for a closer look

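The fasting difference of Mvk differed between the genotypes: the fasting difference in knockout minus that in wild type was 2.21 on the log2 scale (SE 0.25, adjusted p = 0.0170 by limma). Mvk lay lower by 0.71 in fasted than in fed knockout and by 2.92 in fasted than in fed wild type. With Arntl minus Dbp as a covariate it was 2.25 (adjusted p = 0.0354), with each array left out in turn it lay between 2.01 and 2.40, and without fasted knockout arrays 1 and 2 it was 2.30. The call was lost without fed knockout array 1 (adjusted p = 0.0572) or 2 (adjusted p = 0.0735), without fasted knockout arrays 1 and 2 (adjusted p = 0.0650), and without the filter on dim probe sets (an unchanged 2.21, adjusted p = 0.0609).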

How the results depend on the processing

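Over 30 differences of the 6 members and 21 settings, 592 of 624 comparisons kept their direction and side of the threshold, 7 lost the call, 8 gained it and 17 changed sign, all of these in differences that were not called. Fasting in wild type kept 4 to 6 members called under every setting. The 6 arose only with the shared Idi1 and Gm13502 probe set added, since Ggps1 was called under no setting. With arrays left out in turn, the members called ranged from 4 to 5 for fasting in wild type, 0 to 1 for fasting in knockout, 0 to 1 for knockout against wild type when fed, 1 to 2 when fasted and 0 to 2 for the interaction. Otherwise, fasting in knockout had 1 member with the 70th percentile filter or under robust trended moderation, the fed comparison 1 under robust trended moderation, the fasted comparison 0 with the clock covariate or without fasted knockout arrays 1 and 2 and 2 with the shared probe set, and the interaction 0 with no filter or without those arrays and 2 with the shared probe set.

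Calls over all genes moved more. They numbered 2990 for fasting in wild type (1326 to 3062 with arrays left out; 1283 with the clock covariate) and 234 for fasting in knockout (1 to 170; 10 with no filter, 504 under robust trended moderation, 452 with the 70th percentile filter, the replicate block giving 0, 16 with the groups of the contrast alone, 149 with the clock covariate). Knockout against wild type gave 12 when fed (0 to 17; 24 under robust trended moderation, 4 with no filter, 0 with the replicate block, 0 with the groups alone, 1 with the clock covariate, 2 without fasted knockout arrays 1 and 2). It gave 1549 when fasted (435 to 1501; 654, 850, 54 and 6 with no filter, the groups alone, the clock covariate and without those arrays). The interaction gave 294 (2 to 360; 4 with no filter, 520 under robust trended moderation, 501 with the 70th percentile filter, 137 with the replicate block, 72 with the clock covariate, 0 without those arrays). The causes were not tested.

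Signs changed for Ggps1 with fasting in wild type (-0.053 with the clock covariate; -0.029 to 0.15 with arrays left out), for Ggps1 with fasting in knockout (-0.082 to 0.55) and in the interaction (-0.14 to 0.49), and for Hmgcs1 with fasting in knockout (0.012 without fasted knockout arrays 1 and 2). In fasted knockout against fasted wild type they changed for Hmgcs1 (0.017 with the clock covariate, 0.068 without those arrays), Pmvk (0.021 with centring, 0.0085 with quantile normalization, 0.35 with the clock covariate and 0.35 without those arrays; -0.18 to 0.17 with arrays left out) and Mvd (-0.18 and -0.12; -0.10 to 0.18). No pairing of the samples is given in the labels. The 13 pairs with the same replicate number had correlations of -0.17 to 0.11, against -0.15 to 0.17 for other pairs. With 2 arrays in a fed group these values mirror each other: fed wild type array 1 had -0.17 with fed knockout array 1 and 0.17 with array 2. The check therefore cannot decide whether the replicate numbers pair the samples. With the replicate block the interaction of Mvk was 2.21 (adjusted p = 0.0330), and no call of a member changed. Precision is limited by 2 arrays per fed group, and Mvk and Mvd lie near the dim end in fasted wild type.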
